A study of Mus musculus with 3 samples.

Results

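The nuclear genes for subunits of the mitochondrial respiratory chain and the ATP synthase were described in cytosolic RNA of mouse bone marrow-derived macrophages, which are grown from marrow in culture. Members were the protein-coding genes whose symbol begins with Nduf followed by a, b, c, s or v and a digit, or with Uqcr, Cox4, Cox5, Cox6, Cox7, Cox8 or Atp5. They numbered 81 of 55536 genes in the tables (22028 of them protein-coding), with 35 in complex I, 8 in complex III, 20 in complex IV and 18 in complex V. They carried 80 symbols, because Atp5o was annotated a second time as a readthrough gene that reaches into Donson.

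All 3 libraries belonged to 1 group and came from C57BL/6J macrophages whose age and sex were recorded as not collected, with 1 µg of RNA per library. The cells had been given 100 ng/ml of lipid A, the part of bacterial endotoxin that activates Tlr4, for 12 h, were washed and left for 12 h, and were given 100 ng/ml again for 60 min. The labels numbered the libraries as biological replicates 1 to 3 and gave them 1 donor entry in common, and they do not name separate mice or cultures, so p-values measure the spread between these libraries, which may be technical. Untreated and singly treated cells were not analysed here, so no value below is a response to lipid A. A level is that of RNA in the cytosolic fraction of the whole culture, in which fewer cells of a type and less RNA per cell cannot be told apart.

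The respiratory chain passes electrons from NADH through complex I, coenzyme Q, complex III and cytochrome c to oxygen at complex IV, and complex V uses the proton gradient so made to form ATP. Each of these complexes except complex II joins subunits made in the mitochondrion to subunits whose messenger RNA is made in the nucleus and translated in the cytosol. In macrophages, activation through Tlr4 is known to shift energy metabolism from respiration toward glycolysis and to bring about reactive oxygen at the chain.

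Several members are sets of related genes that encode the same subunit. The c subunit, which forms the rotating ring of the ATP synthase, is encoded by Atp5g1 (mm10 chromosome 11, 96068852 to 96075670, minus strand), Atp5g2 (chromosome 15, 102662864 to 102672352, minus strand) and Atp5g3 (chromosome 2, 73908447 to 73911326, minus strand). The last 78 codons of the 3 leading transcripts, 234 bases without the stop codon, encode the same amino acids. Before them lie 58, 68 and 63 codons of targeting leader sequence. The 78-codon stretches are shown because they set how the genes can be told apart by sequence. They are read 5′ to 3′ from the GENCODE M21 transcripts, with capitals at the 63 positions where the 3 genes do not all have the same base.
Atp5g1: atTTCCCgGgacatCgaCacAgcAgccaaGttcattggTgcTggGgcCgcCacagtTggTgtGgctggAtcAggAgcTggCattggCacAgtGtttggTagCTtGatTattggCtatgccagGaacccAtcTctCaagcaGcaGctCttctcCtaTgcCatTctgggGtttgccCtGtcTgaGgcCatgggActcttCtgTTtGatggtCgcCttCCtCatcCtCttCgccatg
Atp5g2: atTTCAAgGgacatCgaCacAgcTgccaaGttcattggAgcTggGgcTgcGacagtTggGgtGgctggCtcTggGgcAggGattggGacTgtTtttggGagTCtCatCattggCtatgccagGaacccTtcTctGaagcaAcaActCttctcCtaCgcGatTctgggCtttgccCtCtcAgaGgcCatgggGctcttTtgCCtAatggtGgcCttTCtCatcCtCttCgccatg
Atp5g3: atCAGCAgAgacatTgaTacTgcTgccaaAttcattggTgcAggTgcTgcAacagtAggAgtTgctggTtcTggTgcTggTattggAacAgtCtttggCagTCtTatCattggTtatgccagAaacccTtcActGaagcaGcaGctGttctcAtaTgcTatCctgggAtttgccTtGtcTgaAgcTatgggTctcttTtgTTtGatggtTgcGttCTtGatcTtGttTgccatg
Atp5g1 and Atp5g2 were identical at 198 of the 234 positions (84.6%), with no identical run longer than 20 bases. Atp5g3 matched Atp5g1 at 184 positions and Atp5g2 at 181, with no identical run longer than 11 and 8 bases. The bases thus differ at short intervals between the 3 genes, while a pseudogene of Atp5g2, described with the c ring, carries the same bases throughout.

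The libraries held 50807046, 53364168 and 46546422 estimated counts on genes in replicates 1, 2 and 3, and 3 counts equalled 0.059, 0.0562 and 0.0645 CPM (counts scaled to the same library size). All 8 macrophage markers stood above 10 TPM, a level scaled to transcript length and to the total of the library, from Itgam at 31.9 ± 6.3 (SD, n = 3) to Lyz2 at 3525 ± 672, with summed levels of 6465, 4879 and 4939 TPM in replicates 1, 2 and 3. None of the 7 muscle, 5 erythroid, 5 germ line, 5 lymphoid or 5 neutrophil markers stood above 1 TPM. Nuclear protein-coding genes took 34.5%, 29% and 27.5% of TPM in replicates 1, 2 and 3, so the TPM values of messenger RNAs as a whole were lowest in replicate 3.

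The members were mostly abundant messenger RNAs. Of the 81 genes, 73 stood above 1 TPM and 69 above 10 TPM (limma's moderated test on log2(TPM + 1), adjusted over the 20685 genes that had a TPM above 0 in any library). Among all those genes 44.5% stood above 1 TPM and 16.9% above 10 TPM, and among the 14374 nuclear protein-coding ones 61% and 23.5%. The median member was at 49.2, 48.7 and 35.2 TPM in replicates 1, 2 and 3, against a mean over the libraries of 3.08 ± 0.202 TPM for the median nuclear protein-coding gene with a value above 0. In all, 46 members lay above the 90th percentile of nuclear protein-coding genes. Together they made up 1.42%, 1.52% and 1.39% of the TPM of nuclear protein-coding genes and 0.436% ± 0.03 of their counts, and their transcripts were short (a median of 682 nt, against 2652 nt for the 9529 nuclear protein-coding genes within the members' range of counts). Across the 73 members with at least 30 counts, Spearman's rho between length and mean TPM was −0.48, as a description across genes. Between length and mean CPM it was 0.33.

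**Figure D1:**
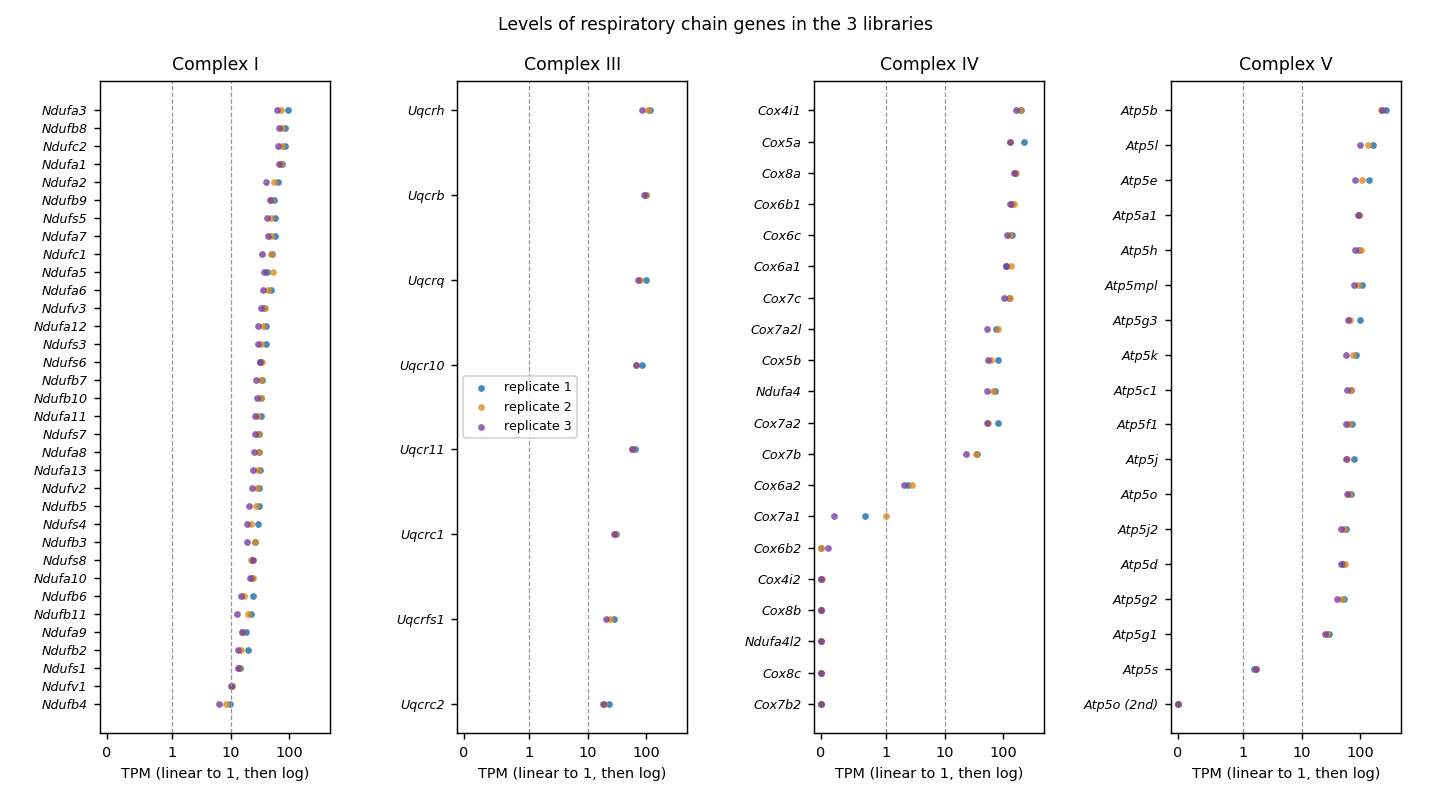
Level of the members in TPM, by complex, with 1 complex I gene not drawn, on an axis that is linear to 1 and logarithmic above; each point is 1 of the 3 libraries and the dashed lines mark 1 and 10 TPM. Most members lie above 10 TPM in all libraries, while 6 of the 8 tissue-restricted forms of complex IV lie at or near 0 and Cox6a2 and Cox7a1 between 0.21 and 2.76 TPM.

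In complex I, which takes electrons from NADH, all 35 genes stood above 1 TPM and 33 above 10 TPM. The most abundant were accessory subunits. Ndufa3 was at 95.4, 71.5 and 61.2 TPM in replicates 1, 2 and 3, Ndufb8 at 84.4, 74.3 and 67.1, and Ndufc2 at 82.9, 73.6 and 64.8. The ranges of these 3 genes overlap. Within libraries Ndufb8 was slightly above Ndufc2 each time, while Ndufa3 was above both in replicate 1 and below both in the others, so its place is not resolved. The 28 accessory genes had a median of 32.0 ± 3.06 TPM (SD, n = 3), and their lowest, Ndufb4, was at 9.81, 8.42 and 6.3 TPM, not placed against 10 TPM (adjusted p = 0.071 by limma).

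The 7 nuclear core genes of complex I, which hold the flavin and the iron-sulphur clusters, ranged over 3.23-fold. Ndufs3 was highest at 33.8 ± 5.16 TPM, and of the others Ndufs7 was at 28.7 ± 2.21, Ndufv2 at 27.3 ± 3.87 and Ndufs8 at 23.2 ± 0.56. Each of these 4 differed from the next by less than the larger of their SDs, except Ndufs8 against Ndufv2. Compared within libraries, Ndufs3 was above the others of these 4 each time. Ndufv2 was above Ndufs7 in replicate 1 alone and below Ndufs8 in replicate 3 alone. The largest subunit, Ndufs1, was at 14.5, 13.8 and 13.5 TPM, and Ndufv1, which binds NADH, was at 10.7, 10.7 and 9.97 TPM and was not placed against 10 TPM (adjusted p = 0.57 by limma). In each library Ndufs1 and Ndufv1 lay below these 4 core genes.

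In complex III, which passes electrons from coenzyme Q to cytochrome c, all 8 genes stood above 10 TPM, and core and accessory genes were separate in TPM. The 5 accessory genes ran from Uqcr11 at 59.8 ± 3.84 TPM to Uqcrh, the hinge protein, at 103 ± 16.6, with Uqcrb at 95.6 ± 4.02 and Uqcrq at 83.3 ± 13. The 3 core genes were lower. Uqcrc1 was at 30.4, 28.9 and 28.3 TPM, the Rieske iron-sulphur protein Uqcrfs1 at 28.2, 23.7 and 20.3, and Uqcrc2 at 23.3, 19 and 18.6. No library of a core gene reached the lowest library of an accessory gene, Uqcr11 at 57.3 TPM. The accessory transcripts were also the shorter ones, with a median of 517 nt against 1647 nt. By CPM, which is not scaled to length, the 2 roles were not separate. The core gene Uqcrc1 was at 66.4, 70.4 and 70.4 CPM and the accessory gene Uqcrh at 59, 60.9 and 47.1.

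In complex IV, which reduces oxygen, the genes divided by the tissue they serve. All 11 genes for the general forms stood above 10 TPM, with a median of 121 ± 9.01 TPM, the highest of any role that held more than 1 gene. Cox4i1, the largest nuclear subunit, was at 199, 192 and 164 TPM. Cox5a was at 223, 130 and 129 TPM, with replicate 1 above the others. Cox8a was at 159, 166 and 152 TPM and Cox6b1 at 142, 155 and 129. In each library Cox4i1 was above Cox8a and Cox6b1, and Cox5a was above Cox4i1 in replicate 1 and below it in the others. Cox7b, at 35.9, 33.6 and 23.4 TPM, was the lowest general form. Cox7a2l, the factor that joins complexes III and IV into supercomplexes, was at 76.2, 80.8 and 53.4 TPM.

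Of the 8 tissue-restricted forms of complex IV, 1 stood above 1 TPM. Cox8b, Cox8c, Cox7b2 and Ndufa4l2 had no count in any library. Cox4i2, the hypoxia and lung form, had 1 count in all 3 libraries together, and Cox6b2, a testis form, had 2. Cox7a1, a heart and muscle form, was at 0.68, 1 and 0.21 TPM and was not placed against 1 TPM (adjusted p = 0.076 by limma). The exception was Cox6a2, the heart and skeletal muscle form of subunit VIa, at 2.37, 2.76 and 2.07 TPM, above 1 TPM (adjusted p = 9.7e-05 by limma) from 279 counts. A spread of its libraries beyond counting noise was not detectable at this depth (adjusted p = 0.079, chi-square test). Of the 7 muscle markers, Myh6, Myh7, Tnnt2, Actn2 and Mb were listed at 0 TPM, and Ckm and Acta1 were at 0.013 and 0.0033 TPM. Cox6a2 (chromosome 7, 128205435 to 128206387, minus strand) overlaps Itgad on the opposite strand, which was at 0.03 TPM. The germ line markers Prm2, Tnp1, Acrv1 and Ldhc were listed at 0 and Prm1 was at 0.097 TPM.

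Where 2 genes encode alternative forms of 1 subunit, the general form held nearly all the messenger RNA. The 7 pairs tested had adjusted p of 0.29 or, for Cox7a2 and Cox7a2l, 0.75 (exact sign-flip permutation, Benjamini-Hochberg over the 7). Cox6a1 exceeded Cox6a2 by 5.55, 5.6 and 5.76 on the log2 TPM scale in replicates 1, 2 and 3 (mean 5.63 ± 0.11, or 49.7-fold, exact two-sided sign-flip permutation p = 0.25, the smallest that 3 libraries allow). Cox7a2 exceeded Cox7a1 by 6.88 ± 1.11 (118-fold, higher in 3 of 3 libraries, the same exact p of 0.25). Per effective length and over the summed counts, Cox4i1 was 23700-fold above Cox4i2 (95% exact Poisson interval 4250 to 935000) and Cox6b1 4250-fold above Cox6b2 (1180 to 35100). Against a floor of 3 counts over the group, Cox8a was at least 1930-fold higher than Cox8b and at least 3190-fold higher than Cox8c, and Cox7b at least 834-fold higher than Cox7b2. These intervals and floors cover counting error only. The general form Cox7a2 and its relative Cox7a2l were not separated (log2 ratios of 0.11, −0.58 and −0.02, exact sign-flip permutation p = 0.75).

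Ndufa4, long counted with complex I and now placed in complex IV, was at 71.6, 65.4 and 53.1 TPM. Its relative Ndufa4l2 had no count, so Ndufa4 was at least 2890-fold higher per length. AA467197, known as Nmes1 or C15orf48, encodes a subunit that can take the place of Ndufa4 and hosts miR-147, a microRNA known to be induced through Tlr4. It does not match the symbol rule and was at 5.01, 2.65 and 2.91 TPM, above 1 TPM. Ndufa4 exceeded it by 3.84, 4.62 and 4.19 on the log2 TPM scale (mean 4.22 ± 0.39, or 18.6-fold), in 3 of 3 libraries (exact sign-flip permutation p = 0.25).

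In complex V, 16 of 18 genes stood above 10 TPM. The catalytic head had Atp5b, the β subunit, as the highest member of all by gene TPM, at 268, 222 and 229. Atp5e (ε) was at 139, 106 and 82.3 TPM, Atp5a1 (α) at 93.4, 95.5 and 89.8, Atp5c1 (γ) at 70.5, 68.5 and 60 and Atp5d (δ) at 51.3, 54.4 and 47.1. The α and β subunits form the head in equal numbers, and the β gene was above the α gene in each library. Of the 4 members in the membrane part, Atp5l (subunit g) was highest at 167, 135 and 98.6 TPM. The peripheral stalk, which holds the head still, had 4 genes above 10 TPM, which lay between 64.3 and 92.2 TPM in the mean. Atp5s, a coupling factor gene that is no structural subunit, was at 1.52, 1.7 and 1.69 TPM, and the second Atp5o annotation had no count.

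The 3 c ring genes were ordered in the gene tables as Atp5g3 at 96.9, 65.8 and 60.9 TPM, Atp5g2 at 53.7, 48.9 and 40.7, and Atp5g1 at 28.7, 27.2 and 25.3. Atp5g2 exceeded Atp5g1 in all 3 libraries (Atp5g1 over Atp5g2 −0.81 ± 0.11 on the log2 scale, exact sign-flip permutation p = 0.25). The second set of tables, which was quantified directly from the reads and not from aligned transcripts, reversed that order, with Atp5g1 over Atp5g2 at 2.08 ± 0.72. Its Atp5g2 levels were 4.74, 2.82 and 1.8 TPM. These were 0.0653 of the gene table values in the mean, where the other members with at least 30 counts had ratios between 0.369 (Atp5b) and 0.731 (Cox6a2), with a median of 0.447. Atp5j was also among the lowest, at 0.434, and next to Cox6a2 were Cox7b at 0.593 and Ndufb4 at 0.585. Cox6b2 (0.403), Cox7a1 (0.556) and Cox4i2 (0.996) had 29 counts or fewer.

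The counts that Atp5g2 lacked there stood at Gm10175, a transcribed processed pseudogene on another chromosome (chromosome 7, 23946646 to 23947290). Its 645-nt transcript was found whole, at 100% identity, at positions 83 to 727 of the 731-nt leading transcript of Atp5g2, and it contains the entire coding sequence of 438 bases and so the stretch printed above. Atp5g2 and Gm10175 had 2064 and 614 counts in replicate 1, 2333 and 441 in replicate 2, and 1708 and 401 in replicate 3 of the gene tables. In the second tables the same libraries gave Atp5g2 489.5, 284 and 177.7 counts and Gm10175 2320, 2596 and 2031. The share of the pair given to Atp5g2 was thus 80.7% ± 3.51 in one set and 11.8% ± 4.96 in the other. Only 86 bases of the Atp5g2 transcript lie outside the match, and a fragment inside the match has the same sequence in both genes. Taken as a sum, the pair was above Atp5g1 in every library of both sets, by 1.18 ± 0.148 on the log2 TPM scale in the gene tables and 1.32 ± 0.132 in the second tables.

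**Figure D2:**
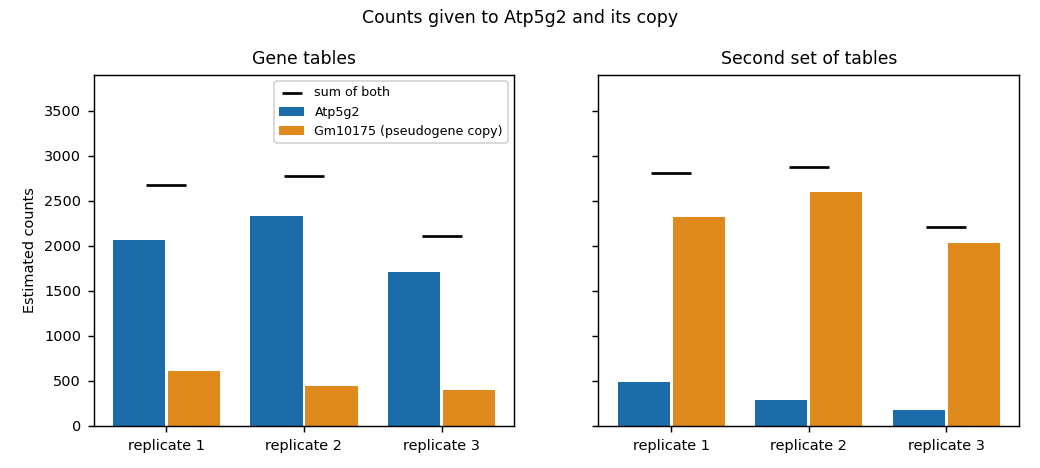
Estimated counts of Atp5g2 and of its pseudogene copy Gm10175 in each replicate, in the gene tables (left) and the second set of tables (right); horizontal marks give the sum of both. The sums lie between 2109 and 2880, while the gene that receives most of the counts changes between the sets.

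Of 73 members searched, 22 had at least 1 copy elsewhere in the annotation that matched 50% or more of the leading transcript at 90% identity or more. The share of other genes with such a copy is not given here. The 46 copies included 45 pseudogenes. Of the copies, 13 were of Atp5l, among them Gm5426, the only one annotated as protein-coding. Of the copies, 26 had no count in the gene tables. With a count there, 3 copies held more than 1% of their member's counts. They were Gm10175, Gm10221, which is identical to Atp5l over 309 nt and had 89.3, 13.9 and 13.2 counts, and Gm15920, which is 99.5% identical to Ndufa12 over 402 nt and had 24.4, 56.3 and 38.7 counts. Levels of members with such copies are uncertain by the share that the counting moved.

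Much of the TPM of some members came from annotated transcripts that do not encode the full protein. Over the 73 members, the median share of transcript TPM in protein-coding transcripts was 99.59%, and 54 members had at least 95% in them. In 5 members the share was under 50% in the gene-level set. The same counts over all genes are not given here, so these are not shown to be particular to the members. Ndufa5 had 18.2% ± 1.46 in coding transcripts, with 62.5% ± 3.63 in 1 processed transcript. Ndufs4, an accessory subunit whose loss is a known cause of Leigh-like disease, had 26% ± 2.62 in coding transcripts and 74% ± 2.62 in transcripts annotated as targets of nonsense-mediated decay. Atp5j had 30.9% ± 1.08 in coding transcripts and 68.5% ± 0.928 in 1 retained-intron transcript of 526 nt. Ndufc1 had 42.6% ± 4.71 and Atp5f1 48.4% ± 8.76, with 51% ± 8.84 of Atp5f1 in a transcript annotated for decay.

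**Figure D3:**
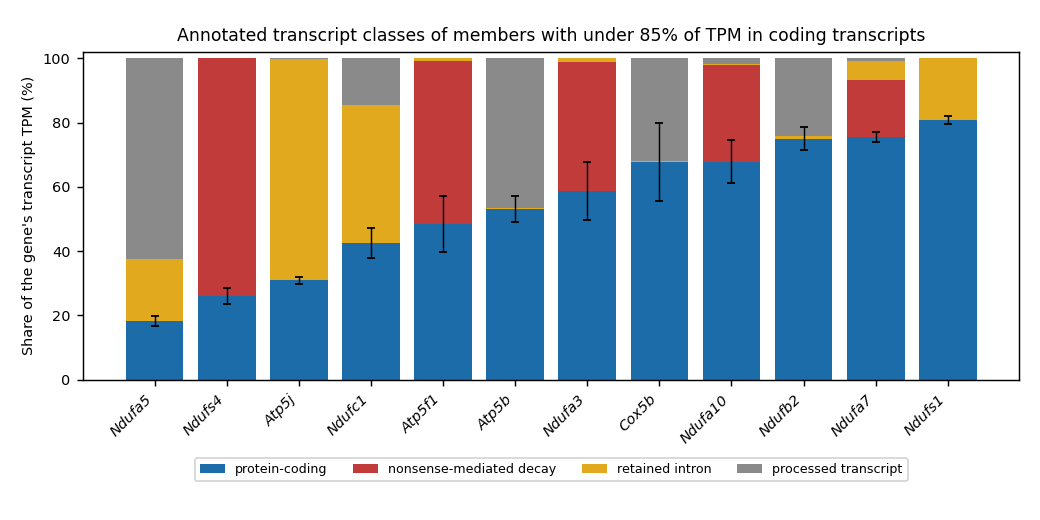
Share of each gene's transcript TPM by annotated transcript class, as the mean over 3 libraries, for the 12 members with under 85% in coding transcripts; error bars are the SD of the protein-coding share (n = 3). Ndufa5 and Ndufs4 have the smallest protein-coding shares, at 18.2% and 26%.

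Counted over coding transcripts alone, the order of the members changed. Atp5b went from the highest member to the seventh in rank, with coding transcripts at 138, 128 and 115 TPM, and a processed transcript of 478 nt held 41.2% ± 4.52 of its TPM. Cox4i1 was then highest in the mean, at 178, 176 and 145 TPM, although Cox5a was above it in replicate 1 and Cox8a in replicate 3. Ndufa5 went from 43.9 TPM to 7.57, 10.4 and 6.2 TPM in coding transcripts, and Ndufs4 from 23.8 to 7.46, 5.42 and 5.51. Atp5j went from 64.6 to 20 ± 4.44 TPM and Ndufa3 from 76 to 43.6 ± 3.35. Over the 70 members with a mean above 10 TPM, the median was 50.5 TPM by gene and 43.3 TPM by coding transcripts, and 68 had a mean above 10 TPM by coding transcripts.

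The sets differed in the share they gave to some retained-intron transcripts. Cox7b-203 held 1.86% ± 1.19 of Cox7b in the gene-level set and 40.7% ± 5.28 in the second set, and Ndufb4-202 held 0% and 43.3% ± 10.8 of Ndufb4. In Cox5b a processed transcript of 362 nt held 46%, 27.1% and 23% in replicates 1, 2 and 3, and its coding transcripts were even between the libraries, at 43.2, 44.4 and 41.6 TPM, while its gene TPM was not, at 80.2, 61 and 54.3. Ndufv3, which has a long and a short form, held 90.2% ± 2.08 of its TPM in the 493-nt transcript and 9.01% ± 2.25 in the 1582-nt one. The leading transcript was the same in both sets for 71 of 73 members, with Atp5f1 and Atp5s as the exceptions.

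Most members were lowest in the same library. On CPM scaled by TMM (a factor for library composition), 60 of 73 members were lowest in replicate 3, against 36% of the 13075 genes with at least 30 counts. Of the members, 48 were highest in replicate 2 (36.1% of all those genes), 23 in replicate 1 (33.6%) and 2 in replicate 3 (30.3%), the 2 being Ndufs8 and Uqcrc1. The size was small, with a median ratio of replicate 3 to replicate 1 of 0.888 for members and 0.981 for nuclear protein-coding genes in their range of counts, and of replicate 2 to replicate 1 of 1.02 and 0.997. The count of members highest in a replicate depends on the scale. By TPM as deposited, which also carries the share that nuclear protein-coding genes took of each library, 57 were highest in replicate 1 (60.1% of all genes) and 15 in replicate 2 (23.8%). With TPM rescaled to the nuclear protein-coding genes, 35 members rather than 60 were lowest in replicate 3 (22% of all genes), and 9 were highest there.

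**Figure D4:**
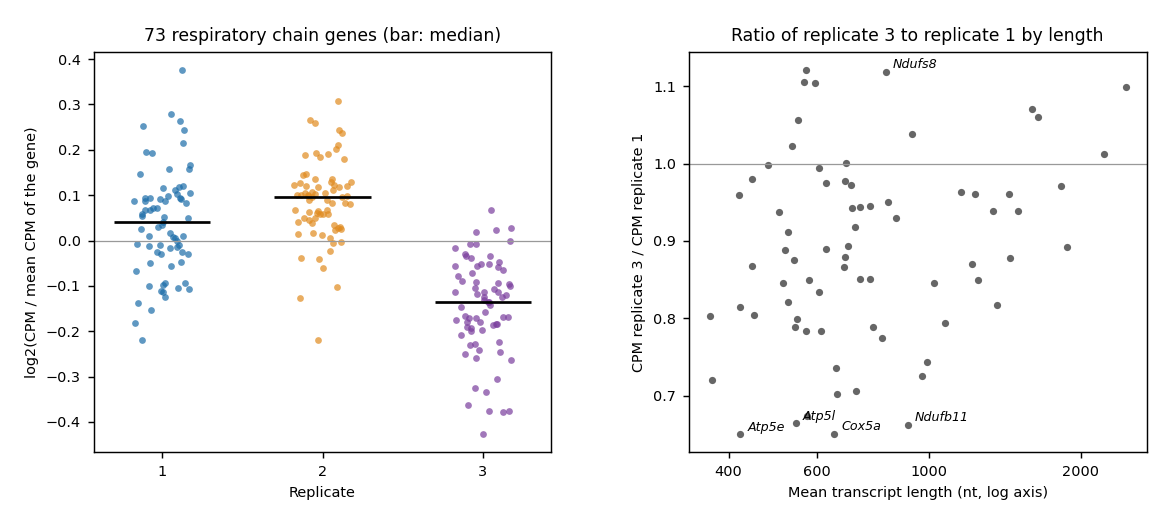
Left, log2 ratio of each member's TMM-scaled CPM to its mean over the libraries, by replicate, with the median as a bar; right, ratio of replicate 3 to replicate 1 against mean transcript length on a logarithmic axis, with 1 point per member. Most members lie below 0 in replicate 3, and Atp5e, Cox5a, Ndufb11 and Atp5l have the lowest ratios, at 0.65 to 0.664.

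Most members varied by more than counting noise. Of 73, 66 (90.4%) did so by the chi-square test on counts (adjusted p under the threshold of 0.05, Benjamini-Hochberg over 13075 genes), against 67% of all genes tested and 73% of the nuclear protein-coding genes in the members' range of counts. Without replicate 3 the count was 34 of 73 (46.6%), against 51.2% of all genes. The coefficient of variation of the members was 9.55% in the median and ran from 1.19% to 25.8%, near the 9.1% of coding genes in their range. Ndufs1 was the steadiest member, at 45.8, 46.9 and 46.3 CPM, and its spread was not beyond noise (adjusted p = 0.75, chi-square test).

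Cox5a had the largest spread of all members, at 146, 96.5 and 94.9 CPM (adjusted p = 2.6e-160, chi-square test), 1.52 times higher in replicate 1 than in the mean of the others. Cox7a2 and Atp5g3 were also highest in replicate 1, at 1.33 and 1.36 times the mean of the others. Atp5e was at 43.4, 38.4 and 28.2 CPM, Atp5l at 82.8, 76.3 and 55 and Ndufb11 at 23.3, 23.6 and 15.5. All 3 were lowest in replicate 3, which fell outside the range of the other libraries. Ndufa5 and Cox6a1 had another pattern and were highest in replicate 2, at 23.5 and 82.1 CPM, against 16.7 and 59.8 in replicate 1.

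The ratio of replicate 3 to replicate 1 was lowest for short transcripts. Its median was 0.859 for the 26 members under 600 nt, 0.885 for the 30 between 600 and 1000 nt and 0.939 for the 17 over 1000 nt. Nuclear protein-coding genes in the same range of counts had medians of 0.866, 0.919 and 0.987 in the same classes of length (136, 609 and 8784 genes). Spearman's rho between length and the ratio was 0.21 over the 73 members and 0.12 over the coding genes, given as a description across genes. The labels give the libraries a size range of 250 to 400, without a unit.

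Other lists moved between the same libraries, and their part in these differences was not tested. The 5 nuclear RNA markers, 3 of them above 1 TPM, summed to 27900, 27010 and 68710 TPM in replicates 1, 2 and 3, nearly all of it Rn7sk, and all 4 with at least 30 counts were highest in replicate 3. Of the 5 stromal markers, 2 stood below 1 TPM, and Col1a1, Col1a2 and Col3a1 were not placed against it. The 5 summed to 0.07, 6.55 and 2.84 TPM, with Col1a1 at 0, 2.53 and 1.28 TPM. Of these 5, 4 were highest in replicate 2. Of the 13 messenger RNAs made in the mitochondrion, which encode the partner subunits of these complexes, 11 were highest in replicate 3, with sums of 1136, 1646 and 3013 TPM. The highest in the gene tables, mt-Atp8, was at 396, 572 and 1000 TPM, and the lowest, mt-Co2, at 11.5, 10.7 and 0. This order depended on the quantification. In the means of the second tables mt-Co1 was highest at 221 TPM, mt-Atp8 was at 142 and mt-Co2 was again lowest at 11.9. As an example, mt-Cytb, the mitochondrial subunit of complex III, was at 90.8, 150 and 270.2 CPM, while Uqcrh was at 59, 60.9 and 47.1 CPM. Uqcrh had the lowest ratio of replicate 3 to replicate 1 in complex III, where 6 of 8 members were lowest in replicate 3. Uqcrb and Uqcrc1 were not, at 47.8, 53.6 and 48.9 CPM and at 66.4, 70.4 and 70.4 CPM.

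Genes related to the members that fall outside the rule for members ranged widely in level. Complex II, which feeds electrons from succinate and is entirely nuclear-encoded, had all 4 genes above 10 TPM, with Sdhb at 69 ± 1.97, Sdha at 45.3 ± 4.46, Sdhd at 42.5 ± 5.92 and Sdhc at 31.7 ± 1.27 TPM. Ndufab1, the acyl carrier subunit of complex I, was at 28 ± 3.6 TPM, cytochrome c (Cycs) at 17.1 ± 2.74 and cytochrome c1 (Cyc1), a catalytic subunit of complex III, at 16.7 ± 2.27. Usmg5, a membrane subunit of the ATP synthase, was at 177 ± 14.4 TPM. Ndufb1-ps, whose symbol matches but which is annotated as a long non-coding RNA, was at 45.1 ± 13.2 TPM.

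Of 44 assembly and inhibitor genes found, 41 stood above 1 TPM, with a median of 5.26 TPM. The highest were the copper chaperone Cox17 at 92.5 ± 11.4 TPM and Atpif1, the inhibitor of ATP hydrolysis, at 128 ± 10.9. In complex I assembly, 13 of 14 genes stood above 1 TPM, from Nubpl at 0.767 ± 0.166, not placed, to Ndufaf8 at 9.45 ± 2.21. Complex III assembly ran from Lyrm7, at 0.29 ± 0.139 and below 1 TPM, to Uqcc2 at 27.8 ± 5.13, and in complex IV assembly 19 of 20 genes stood above 1 TPM and Pet117 was listed at 0. Of 9 regulators of these genes, 8 stood above 1 TPM. The coactivator Ppargc1a was below it, at 0, 0.04 and 0 TPM, while its relative Ppargc1b was at 1.54 ± 0.154, Nrf1 at 4.55 ± 0.298, the ETS factor Gabpa at 7.37 ± 0.798 and Esrra, the highest, at 9.41 ± 1.3.

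Promoters of respiratory chain genes are known for binding sites of Nrf1, of ETS factors such as Gabpa and of Yy1. In RefSeq promoters of build GRCm38.p6, from 250 bases before to 50 after the start, 65 of the 80 symbols were matched, with 70 promoters. The unmatched ones included Atp5a1, Atp5mpl, Cox4i1, Cox4i2, Cox6a2, Cox6c, Cox8c, Ndufa2, Ndufa4l2, Ndufb9, Ndufs1, Uqcrb, Uqcrc2 and Uqcrq. Letters were searched on both strands. The Nrf1 letters GCGCANGCG were in 19 of 70 member promoters (27.1%) and in 6.25% of all 32851 promoters. The ETS letters CCGGAAG were in 20% against 8.86%, and the Yy1 letters AAGATGGCG in 10% against 1.4%. The TATA box letters TATAAA were in 11.4% against 13.6%. Among promoters of protein-coding genes only, the shares were 8.58%, 11.6%, 1.83% and 12.6% in the same order. A match describes letters and is not a bound site. Promoters of genes in the members' range of counts were not counted apart, so the higher shares are not shown to be particular to the members.

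The windows below are from 5 members with Nrf1 matches at high and at low level, 5′ to 3′ on the gene's strand and all before the annotated start, with the matches in capitals (merged where a match to each strand overlaps).
Cox6a1 (chr5:115349058-115349128, minus strand): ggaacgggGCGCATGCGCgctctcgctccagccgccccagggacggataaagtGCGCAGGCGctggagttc
Atp5c1 (chr2:10080433-10080472, minus strand): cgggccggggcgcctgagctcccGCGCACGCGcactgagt
Ndufa11 (chr17:56717692-56717722, plus strand): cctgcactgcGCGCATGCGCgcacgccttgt
Ndufa8 (chr2:36049339-36049378, minus strand): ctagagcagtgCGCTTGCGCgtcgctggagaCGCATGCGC
Ndufb4 (chr16:37654378-37654458, minus strand): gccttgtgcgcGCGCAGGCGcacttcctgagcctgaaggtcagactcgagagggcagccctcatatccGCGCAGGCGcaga
The levels beside these letters ran from 8.18 TPM for Ndufb4 to 119 TPM for Cox6a1, so both the lowest gene of complex I and a high gene of complex IV carry them. Each of these 2 windows has 2 runs in capitals. Over the promoters matched to members with a level above 0, the median was 48.7 TPM for the 18 genes with Nrf1 letters and 36.3 TPM for the 45 without, and 82.2 TPM for the 14 with ETS letters and 36.3 TPM for the 49 without. For Yy1 letters it was 32.4 TPM with (7 genes) and 48.5 TPM without (56 genes).

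**Figure D5:**
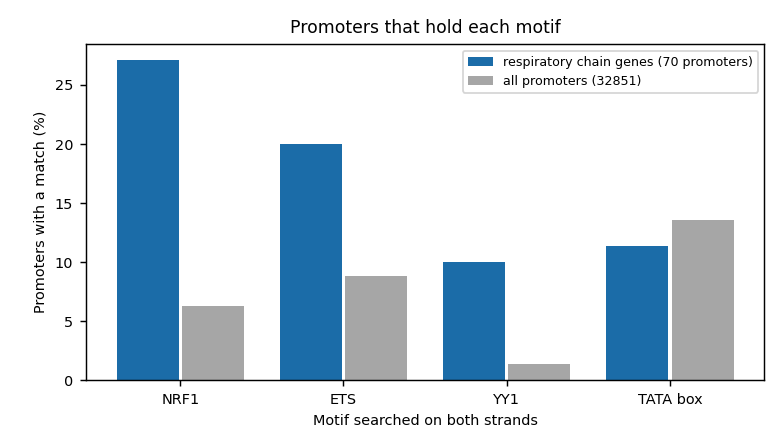
Share of promoters with at least 1 match on either strand to the letters of each motif, for the 70 promoters of respiratory chain genes and for all 32851 promoters. The shares for NRF1, ETS and YY1 are higher among the members (27.1%, 20% and 10%) than among all promoters (6.25%, 8.86% and 1.4%), and the share for the TATA box is not (11.4% against 13.6%).

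Many members also start back to back with another gene. A protein-coding gene on the opposite strand began within 1 kb upstream for 16 of 81 members (19.8%), against 6.76% of all nuclear protein-coding genes and 11.5% of those in the members' range of counts. The median distance between the starts was 115 bp. In 14 of the 16 pairs the member was higher than its neighbour in all 3 libraries, as with Uqcrh at 103 TPM beside Lrrc41 at 14.2 ± 2.52 and Atp5h at 92.2 TPM beside Kctd2 at 2.72 ± 0.185. The exceptions were Ndufa7 at 49.3 TPM, whose start lies 10 bp from that of the ribosomal protein gene Rps28 at 355 ± 63 TPM, and Ndufa2 at 53 TPM beside Ik at 54.9 ± 6.6. The median neighbour was at 1.92 TPM, against 3.08 TPM for the median nuclear protein-coding gene with a value above 0. Most members lay above both levels, so the count of 14 cannot show a trait of back-to-back pairs. In 29 members the gene body overlapped a gene on the opposite strand, and the share of all genes that do so is not given here. The strand setting of the counting is not given in the sources used here, so reads of such partners may be counted with the member. Atp5j at 64.6 TPM overlaps Gabpa at 7.37 TPM in this way, and Ndufs1 at 13.9 TPM overlaps Eef1b2 at 80.2 TPM.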

How the data were processed

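Total RNA-seq of the cytosolic fraction, after ribosomal RNA depletion per the labels, gave 3 libraries of 1 group. The authors deposited expected counts and TPM per gene and transcript, quantified from a transcriptome alignment on mm10 with annotation M21 per the deposited text file, and a second set of transcript tables made directly from the reads, with estimated counts and TPM. The sources used here do not give the quantification tools, versions or strand settings. Each library held 46546422 to 53364168 estimated counts on genes, and entries that name no gene (0.0772% to 0.378% of counts) were left out.

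The members and all lists were chosen with earlier results of these data known. Levels were tested against 1 and 10 TPM with limma 3.58.1 on log2(TPM + 1), with a pseudocount of 1, a trend and robust variances, two-sided, with Benjamini-Hochberg adjustment over 20685 genes. Expected counts were rounded, and a chi-square test against sizes scaled by TMM (edgeR 4.0.16) compared the libraries wherever a gene's 3 counts summed to 30 or more. Levels were simulated with the same SD of log2(TPM + 1) for every gene, smaller than that of members such as Cox5a. There, 100% of 200 genes set 2-fold above 1 TPM and 3.5% of those set at it were called, over 20685 genes. These shares do not cover genes with a larger spread. On simulated counts of the same depth, the noise test found 89.5% of 200 genes doubled in 1 library and 0.0783% of the rest, over 12975 genes. Second tables were summed to genes. Copies were searched with blastn 2.17.0.

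Genes are named by a rule: the 3 highest and the lowest of each complex, core and F1 genes, paralog pairs, the 5 largest SDs, the 5 largest and smallest ratios between the sets, members with under 50% of TPM in coding transcripts, and the highest and lowest of each related list. One gene that the rule names is not reported here. Others serve as examples chosen after their values were seen. Alternatives were other pseudocounts, filters, scalings and count minimums, DESeq2 1.42.0 size factors, the second tables and leaving out each replicate.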

Additional observations from a re-analysis of the deposited data

How the results depend on the processing

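The counts of members above 1 TPM (72 to 73) and above 10 TPM (56 to 71) stayed within 1.5 times their values of 73 and 69 under every alternative run, and leaving out each replicate gave 73 and 66 to 69. The count beyond counting noise was 64 to 73 under other scalings, minimums and the second tables, and 34 to 59 without each replicate in turn, with 34 without replicate 3. Members highest in replicate 1 numbered 57 by TPM as deposited and 15 by TPM rescaled over coding genes, against 23. Members highest in replicate 2 numbered 15 by TPM as deposited, against 48. Members highest in replicate 3 numbered 4 by plain totals, 1 by TPM as deposited, 9 by rescaled TPM and 0 in the second tables, against 2. The median TPM was 18.8 in the second tables and 146 after rescaling, against 44.4, and 42.0 to 49.0 without each replicate. The summed share was 1.38% to 1.47%, against 1.44%. The cause of these shifts was not tested, apart from the rescaling, which by construction raises TPM.

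Of the paralog ratios (log2), Cox7a2/Cox7a2l was −0.17, turned to 0.0442 without replicate 2 and ranged from −0.302 to 0.0442 without each replicate. Atp5g1/Atp5g2 turned from −0.81 to 2.08 in the second tables and was −1.18 and −1.32 in the 2 sets with Gm10175 added to Atp5g2, an alternative chosen after seeing the data. Atp5g3/Atp5g2 went from 0.62 to 3.5 in the second tables and to 0.254 and 0.104 with Gm10175 added. Cox6a1/Cox6a2 went from 5.63 to 5.02 in the second tables. In the second tables the level turned below 1 TPM for Atp5s (−0.193 on the log2 scale) and below 10 TPM for Ndufa9 (−0.358), Ndufb2 (−0.408), Ndufs1 (−0.634), Ndufb11 (−0.262), Ndufv1 (−0.883), Atp5g2 (−1.48) and Ndufb6 (−0.25), and Ndufb4 turned above 10 TPM after rescaling (1.33). No paired analysis was possible because the libraries form 1 group. Over single members and settings, 1029 calls kept their direction and side of the threshold, 11 lost the threshold, 5 passed it and 9 turned. With 3 libraries an exact sign-flip test cannot fall below 0.25.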
